A study of Rattus norvegicus with 72 samples.

Results

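The molecular clock of the rat dorsal root ganglion was followed through 10 genes after sciatic nerve surgery: the repressor Nfil3, the related activators Dbp, Tef and Hlf, the period genes Per1 and Per2, the nuclear receptors Nr1d1 and Nr1d2, and the transcription factors Bmal1 and Clock. They were chosen by gene symbol, and each was read from its brightest probe set, the one with the highest mean over all 72 arrays. The 10 genes had 21 probe sets that carried only their symbol, and the other 11 served as a check. All 10 were among the 12276 genes tested, out of 14217 named genes.

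RNA came from the L4 and L5 ganglia, where the sensory neurons of the sciatic nerve have their cell bodies, in Wistar rats aged 8 to 12 weeks. The 3 groups were sham surgery (21 arrays), a crush of the nerve labelled proximal (22 arrays) and a crush labelled distal (29 arrays), each taken at 8 hours after surgery (1, 3 and 8 h, 12 and 16 h, and 18, 24 and 28 h), and no allele or drug is named for any of them. Sham had 1 array at 16 h and 2 at 12 h, proximal had 2 at each of these hours, and every other sham or proximal group had 3. Distal groups held between 2 and 6 arrays. The labels do not say whether an array is 1 animal or a pool of ganglia, nor the time of day of surgery or dissection, so hours are hours after surgery, and p-values measure the spread between arrays, which may be technical.

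In the mammalian clock, BMAL1 and CLOCK bind E-boxes and drive the Per genes, Nr1d1, Nr1d2, Dbp, Tef and Hlf, and the PER proteins act back on BMAL1 and CLOCK. NR1D1 and NR1D2 repress Bmal1 through ROR elements, which places Bmal1 in antiphase to them. DBP, TEF and HLF activate genes through D-boxes, and NFIL3, also called E4BP4, binds the same element and represses. Nfil3 is also known as a gene that cytokines and nerve injury induce.

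The binding elements of this loop were looked for in the RefSeq promoters of the GRCr8 assembly, each running from 250 bases before to 50 bases after a gene's start. Of the 10 genes 9 matched, with 11 promoters. The windows below are shown because they hold the elements through which the members are known to act on one another, with the matches in capitals and up to 20 bases on either side.

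Bmal1, chr1:176766255-176766327, plus strand: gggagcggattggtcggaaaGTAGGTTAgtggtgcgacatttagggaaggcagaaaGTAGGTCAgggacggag

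Per2, chr9:99497030-99497205, minus strand: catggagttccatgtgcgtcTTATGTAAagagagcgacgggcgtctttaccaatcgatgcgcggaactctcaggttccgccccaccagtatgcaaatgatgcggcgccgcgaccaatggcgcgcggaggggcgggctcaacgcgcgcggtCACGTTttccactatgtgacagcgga

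Tef, chr7:115206609-115206654, plus strand: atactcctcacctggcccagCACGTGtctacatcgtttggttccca

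Nr1d1, second of 2 starts, chr10:84229620-84229665, minus strand: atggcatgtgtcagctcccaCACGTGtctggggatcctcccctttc

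The Bmal1 window held 2 matches to GTAGGTNA, a core of the ROR element, from -53 to -46 and from -17 to -10 relative to the start. This motif was in 2% of all 33469 promoters of the same length. The match nearer the start contains the shorter ROR motif AGGTCA, which was in 16.2% of promoters. Per2 held the D-box TTATGTAA at -192 (0.893% of promoters) and the E-box variant CACGTT at -62 (4.83%). The E-box CACGTG, in 6.42% of promoters, was found at -198 in Tef and at -191 before the second start of Nr1d1. Before its first start Nr1d1 held CACGTT, and Nr1d2 held AGGTCA at -187. The cyclic AMP element TGACGTCA, in 1.83% of promoters, was in none of the members' windows, and Nfil3, Dbp, Per1 and Clock had no match to any of the 6 motifs. Both strands were searched. A match here is a description of the letters and not of binding.

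Values are log2 intensities made with RMA, so a difference of 1 is a doubling of signal, and levels are compared only within a gene. The injury gene Atf3 was low in every early array (6.14 to 8.56 over all lesions at 1, 3 and 8 h) and high late after both crushes (10.99 to 12.68 at 18, 24 and 28 h), which follows the labels. Sham arrays were uneven: Atf3 reached 11.55 in sham 12 h b, 9.97 in the only sham array at 16 h, 10.16 in sham 24 h c and 10.15 in sham 28 h a, against at most 9.46 in the other sham arrays. Sham 12 h b lay above both proximal arrays of that hour (10.58 and 11.46). Sham 12 h b thus goes against its label in this gene, and the other 3 lie between the remaining sham arrays and the proximal arrays of 12 to 28 h (10.58 or higher). The reason was not tested, and of the 3 sham arrays at 12 and 16 h only sham 12 h a is not among these 4. By their values on the dim probe sets the arrays were clustered into 4 sets, a number that was chosen. They are called technical sets A to D here, a name that does not come from the labels. Set A held 27 arrays, all distal. Set D held the 18 sham and proximal arrays of 1, 24 and 28 h. Set C held those of 3 and 8 h with 5 sham or proximal arrays of 12 to 18 h and 1 distal array, and set B held the other 8 sham and proximal arrays of 12 to 18 h and 1 distal array. Distal lesion and set therefore cannot be told apart, and neither can most hours of sham and proximal.

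Nfil3 was the 1 member that separated proximal crush from sham. In the late window (18, 24 and 28 h) it lay at 8.63 ± 0.28 after proximal crush (SD, n = 9) and at 7.22 ± 0.24 in sham (SD, n = 9). At 18 h the proximal arrays a, b and c had Nfil3 at 8.51, 8.56 and 8.06, against 7.41, 7.11 and 7.24 in sham. At 24 h they were at 8.55, 8.54 and 8.80 against 7.04, 7.23 and 7.61. At 28 h they were at 8.70, 8.99 and 8.93 against 7.51, 6.91 and 6.96. All 9 late proximal arrays thus exceeded all 9 late sham arrays, which was so for 0.88% of genes tested. The difference was 1.40 on the log2 scale (SE 0.13), or 2.64-fold (adjusted p = 1.46e-12, limma, over all genes). In this comparison 9.71% of all genes were called at an adjusted p under 0.05, against 1 of the 10 members.

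**Figure D1:**
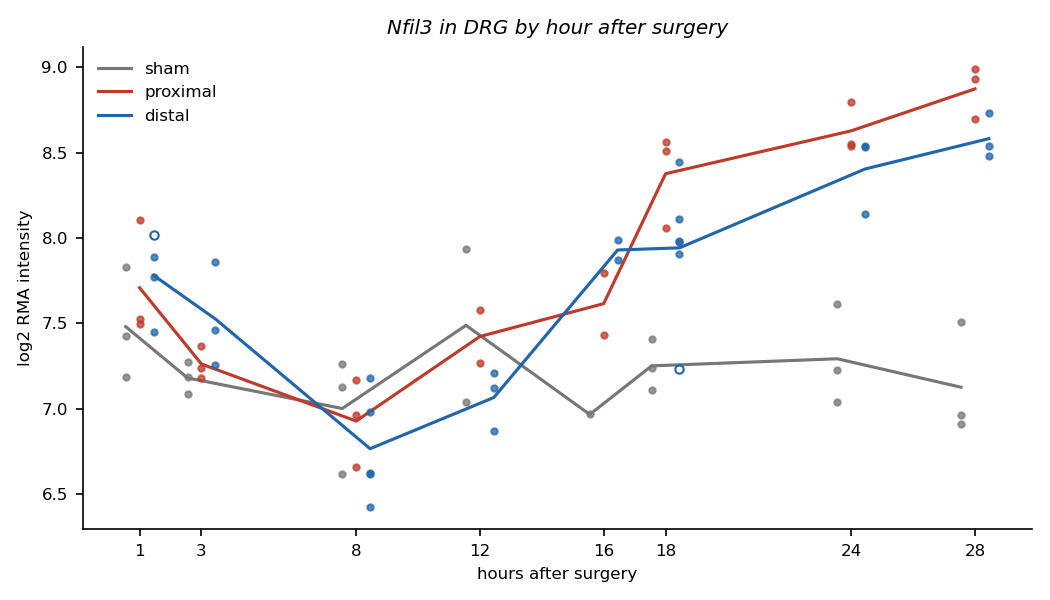
Nfil3 on each array (points, log2 RMA intensity) against hours after surgery, with lines through the group means of sham (grey), proximal (red) and distal (blue). Open blue circles are the 2 distal arrays outside set A. Both crush groups lie above sham from 18 h onwards, apart from 1 open circle at 18 h, and both are lowest at 8 h.

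By hour, the difference between proximal and sham was 0.23 at 1 h, 0.08 at 3 h, -0.07 at 8 h, -0.07 at 12 h and 0.65 at 16 h, none of which passed the test. At 12 h it was 0.38 without sham 12 h b, the array with Atf3 at 11.55, and -0.51 without sham 12 h a, and at 16 h it rests on the single sham array with Atf3 at 9.97. It was 1.12 at 18 h (SE 0.23, adjusted p = 0.00134, limma), 1.33 at 24 h (adjusted p = 6.81e-05, limma) and 1.75 at 28 h (adjusted p = 1.2e-07, limma). The call at 18 h was lost when the model was fitted to these 6 arrays alone (adjusted p = 0.321, limma). Of all genes 1.51% were called at 18 h, 1.21% at 24 h and 4.47% at 28 h, and Nfil3 was the 1 member called at each. At 1 and 3 h 0% of genes were called by limma, with 247 and 307 genes at an unadjusted p under 0.05. The shares were 1.75% at 8 h, 0.0326% at 12 h and 0.0489% at 16 h, and no member was called at any of these 5 hours, with 0, 1, 1, 0 and 5 members at an unadjusted p under 0.05.

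Within technical sets the late difference of Nfil3 kept its sign. It was 1.54 in set D (24 and 28 h, 6 arrays a group), 1.28 in set B (18 h, 2 a group) and 0.82 in set C (18 h, 1 a group). With the set as a fixed block it was again 1.40 (adjusted p = 1.13e-14, limma). Without the 4 sham arrays highest in Atf3 it was 1.52.

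Early, at 1, 3 and 8 h, Nfil3 did not separate the groups. It had a mean of 7.30 ± 0.40 after proximal crush (SD, n = 9; 6.66 to 8.10, median 7.24) and 7.22 ± 0.32 in sham (SD, n = 9; 6.62 to 7.83, median 7.19), and the arrays overlapped. None of the 10 members was called in this window by limma, with 0.13% of genes called and 2 members at an unadjusted p under 0.05. These 2 were Per1 (0.22, 95% interval 0.04 to 0.41) and Tef (0.22, 95% interval 0.01 to 0.43), both with a higher mean after proximal crush. The difference between proximal and sham was larger late than early by 1.32 for Nfil3 (SE 0.18, adjusted p = 6.53e-07, limma). It was the 1 member called, with 8.67% of genes.

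The other 9 members had late proximal minus sham differences between -0.19 (Dbp, 95% interval -0.59 to 0.21) and 0.12 (Clock, 95% interval -0.10 to 0.35). None passed the test, and the median over all 10 members was -0.01 against -0.02 over all genes. The intervals were wide for the genes that varied most: Nr1d1 had -0.13 (95% interval -0.47 to 0.21) and Nr1d2 had 0.01 (95% interval -0.35 to 0.38). Late proximal arrays had Dbp at 6.33 to 8.46 with a median of 8.12, and late sham arrays at 6.82 to 9.06 with a median of 7.96. The lowest of each were proximal 18 h c, the 1 proximal array at that hour in set C, and sham 28 h a, whose companions b and c were at 9.06 and 8.70. Without the 4 sham arrays highest in Atf3, of which 2 are late, the Dbp difference was -0.50 (adjusted p = 0.0821, limma). The 11 dimmer probe sets of the members lay between -0.16 and 0.24, and 0 were called by limma.

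**Figure D2:**
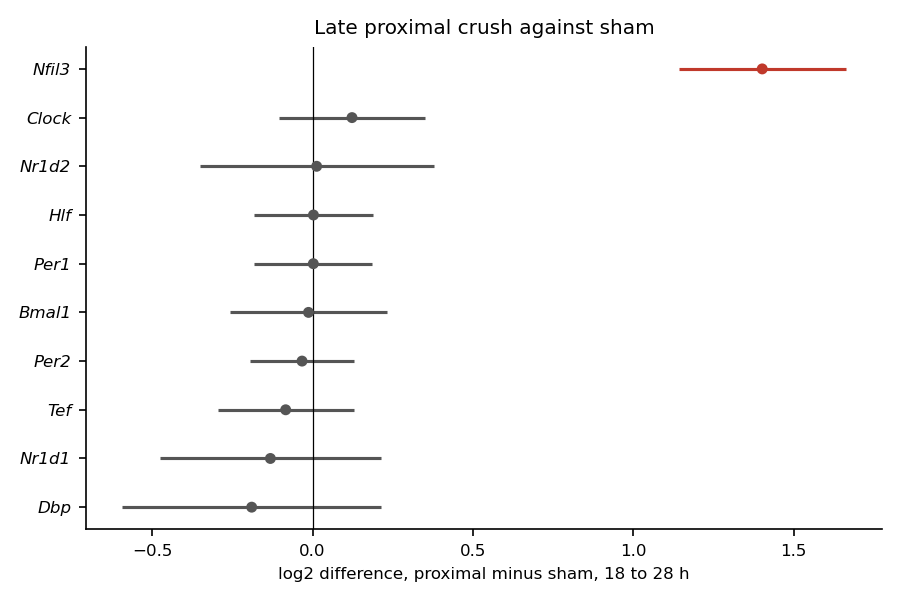
Late proximal minus late sham difference (log2, 9 arrays a group) for each member, with the 95% confidence interval from limma as a bar. Nfil3, in red, is the 1 member whose difference passed the test, at 1.40. The other 9 lie between -0.19 and 0.12, and their intervals all include 0.

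After distal crush Nfil3 rose as well. Its early arrays (1, 3 and 8 h) ran from 6.42 to 8.02 with a median of 7.35 (n = 12), and its late arrays from 7.23 to 8.73 with a median of 8.29 (n = 12), so the groups overlapped. The late minus early difference was 0.95 (SE 0.12, adjusted p = 4.83e-09, limma) and 1.02 on the set A arrays alone. On the brightest probe sets Nfil3 was the 1 member called, with 25.3% of genes. On the set A arrays alone Clock (0.17, adjusted p = 0.0374, limma) and Nr1d2 (-0.18, adjusted p = 0.0136, limma) were called too, but that fit called 44% of all genes. Of the 11 dimmer probe sets 4 were called over all distal arrays, beside 25.2% of every named probe set. All were lower late: Nr1d2 (-0.40 and -1.10), Clock (-0.39) and Tef (-0.57).

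The step from early to late was set against that from early to late after proximal crush. Per1, a period gene and an early target of light and stress signals, was the 1 member called on its brightest probe set, with 21.5% of genes called. Its early and late means were 9.20 and 8.53 after proximal crush and 8.87 and 8.72 after distal crush, a difference of 0.53 between the steps (SE 0.12, adjusted p = 0.00191, limma). Sham Per1 had early and late means of 8.97 and 8.53. Nearly all distal arrays lie in set A, so lesion site and technical set cannot be told apart here. With the technical set as a random block the difference of Per1 was 0.54, with an adjusted p = 0.0636 (limma). For Nfil3 the step was smaller after distal crush by a difference of -0.37 (95% interval -0.72 to -0.02, adjusted p = 0.114, limma), and for Nr1d1 the difference was 0.55 (adjusted p = 0.0768, limma). Of the 11 dimmer probe sets 2 were called, 1 of Nr1d2 (-1.09) and 1 of Hlf (0.76), beside 22.4% of every named probe set.

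Late distal crush against late sham gave calls for 6 of 10 members, beside 61.8% of all genes. Clock (0.51), Nfil3 (1.09), Nr1d2 (0.44) and Per1 (0.20) were higher, and Per2 (-0.36) and Tef (-0.42) lower. The technical set cannot be told apart from the lesion here, and with it as a random block 0 members were called by limma, beside 0.717% of all genes. Nfil3 was then at 0.95 (adjusted p = 0.214, limma), Clock at 0.16, Nr1d2 at 0.15, Per1 at 0.15, Per2 at -0.25 and Tef at -0.23. Of the genes with several probe sets, a dimmer one had the opposite sign for Clock (-0.28 and -0.65), Nr1d2 (-0.04 and -0.35), Per2 (0.30) and Hlf (0.64, against -0.03 for its brightest).

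More members were called over hours than between proximal crush and sham. Over the 8 hours 8 of 10 members were called within distal (16.7% of genes), and 8 of 10 within sham (53.6% of genes) and within proximal (50% of genes). In sham and proximal about as many of all genes were called as not, and hour and technical set largely coincide there. The distal arrays of set A cover all 8 hours, so the time course is described first with the means of those 27 arrays. Each F is given over all 29 distal arrays and on set A alone, where 38.1% of all genes and again 8 members were called.

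Dbp, an output gene of the clock, lay in distal set A arrays at 7.60 at 1 h, 7.69 at 3 h, 8.23 at 8 h and 7.80 at 12 h. It was at 6.71 at 16 h and 6.88 at 18 h, and then at 8.43 at 24 h and 8.95 at 28 h. The 2 arrays at 16 h (6.66 and 6.76) and the 5 at 18 h (6.22 to 7.31) did not overlap the 6 arrays at 24 and 28 h (8.35 to 9.18). The hours differed with F = 11.4 (adjusted p = 6.27e-07, limma) over all 29 distal arrays and F = 33.1 (adjusted p = 6.19e-09, limma) on set A alone. The highest and lowest hour means of Dbp were 4.73-fold apart.

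Nr1d1, which encodes REV-ERB alpha, had the widest range of the members in distal arrays, with hour means 4.91-fold apart. It was at 6.98, 7.25 and 7.22 at 1, 3 and 8 h in set A, at 6.09 at 12 h, where its 3 arrays ran from 5.39 to 6.92, and at 5.54 at 16 h. From 6.59 at 18 h its means were 7.83 at 24 h and 7.80 at 28 h. Its test over hours had F = 13.6 (adjusted p = 5.6e-08, limma) over 29 arrays and F = 17.4 (adjusted p = 1.59e-06, limma) on set A alone. Its lowest hour mean was at 16 h, as was that of Dbp, and at 12 h it stood -0.82 from its mean over the hours, where Dbp stood at 0.01.

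Nr1d2, which encodes REV-ERB beta, ran from 10.43 at 8 h to 9.35 at 16 h and 9.47 at 18 h, and back to 10.35 at 28 h (F = 5.73, adjusted p = 0.000966, limma, over 29 arrays; F = 30.4, adjusted p = 1.27e-08, on set A alone). Tef was at 9.28 at 8 h, 8.66 at 16 h and 9.44 at 28 h (F = 5.82, adjusted p = 0.000858, limma; F = 16.8, adjusted p = 2.07e-06, on set A alone). Hlf had a narrower range, from 7.57 at 12 h to 6.96 at 16 h (F = 4.12, adjusted p = 0.0103, limma; F = 7.56, adjusted p = 0.000579, on set A alone). The call of Hlf was lost with each of its 3 dimmer probe sets (adjusted p = 0.13, 0.46 and 0.32, limma) and after another quantile normalization (adjusted p = 0.0618, limma). The call of Tef was lost with 1 of its 2 dimmer probe sets (adjusted p = 0.232, limma). On the brightest probe sets all 3 had their lowest set A mean at 16 h, the hour of the lowest Dbp.

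Bmal1 ran the other way. Its distal set A means were 7.92 at 1 h, 7.90 at 3 h, 7.38 at 8 h and 7.73 at 12 h, then 8.42 at 16 h, 8.09 at 18 h, 7.95 at 24 h and 7.62 at 28 h (F = 4.56, adjusted p = 0.00535, limma, over 29 arrays; F = 10.97, adjusted p = 5.0e-05, on set A alone). At 16 h its 2 arrays were at 8.39 and 8.45, and at 8 h its 5 arrays lay between 7.31 and 7.43. On the brightest probe sets Bmal1 was thus highest at the hour when Dbp, Tef, Hlf, Nr1d1 and Nr1d2 were lowest. Both dimmer Nr1d2 probe sets were lower at 18 h (8.93 and 5.08) than at 16 h (9.18 and 6.51). So was 1 dimmer Tef probe set (5.20 against 6.11). The other dimmer Tef probe set and those of Hlf were lowest at 16 h. Across the 8 hour means of all 29 distal arrays the correlation of Bmal1 was -0.73 with Dbp, -0.80 with Tef, -0.84 with Hlf, -0.82 with Nr1d2 and -0.57 with Nr1d1, given as a description of points from the same arrays.

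**Figure D3:**
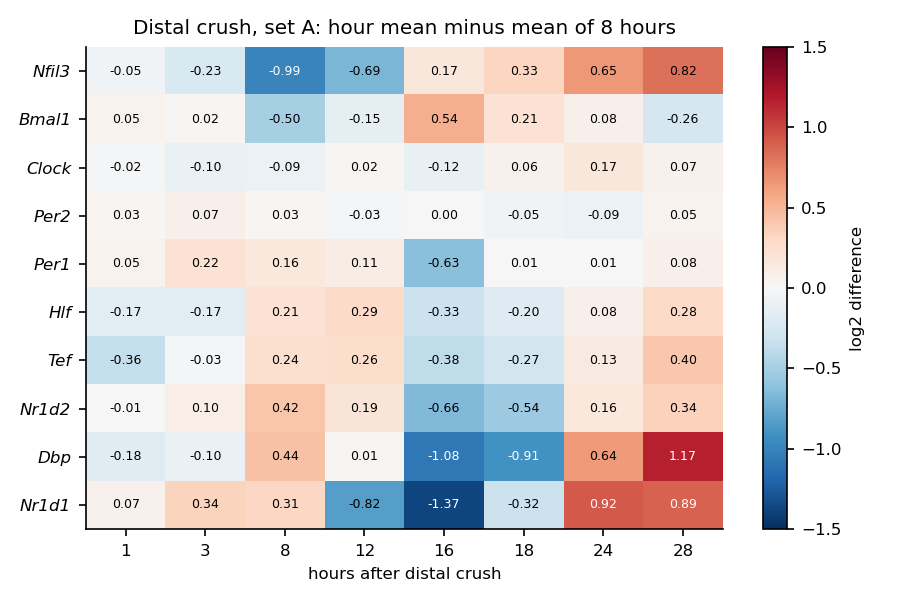
Mean of each member at each hour after distal crush on the 27 set A arrays, minus its mean over the 8 hours (log2; red above, blue below, value printed). At 16 h Bmal1 stands at 0.54 and Dbp and Nr1d1 at -1.08 and -1.37, and Nfil3 runs from -0.99 at 8 h to 0.82 at 28 h.

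Per1 in distal set A arrays had hour means between 8.73 and 8.94 at every hour but 16 h, where its 2 arrays were at 7.81 and 8.36. Its test over hours (F = 4.28, adjusted p = 0.00814, limma, over 29 arrays; F = 5.45, adjusted p = 0.00376, on set A alone) depended on 1 array: without distal 16 h b it had F = 1.52 (adjusted p = 0.472, limma). Clock was not called (F = 0.61, adjusted p = 0.934, limma, over 29 arrays; F = 1.43, adjusted p = 0.34, on set A alone), with hour means between 8.57 and 8.86.

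The 2 probe sets of Per2 disagreed. Its brightest was flat in distal arrays, with set A means between 7.81 and 7.98 (F = 0.32, adjusted p = 0.997, limma, over 29 arrays; F = 0.41, adjusted p = 0.907, on set A alone). Its dimmer probe set was at 7.07 at 1 h, 7.24 at 3 h, 7.93 at 8 h, 7.75 at 12 h, 6.36 at 16 h, 6.67 at 18 h, 7.66 at 24 h and 8.41 at 28 h. The 2 arrays at 16 h (6.31 and 6.42) and the 3 at 28 h (8.33 to 8.51) were far apart, and the hours differed with F = 16.2 (adjusted p = 6.46e-09, limma, over every named probe set on 29 arrays). This probe set was low and high at the hours of Dbp. Which of these probe sets follows the Per2 transcript more closely was not tested. Of the 11 dimmer probe sets 5 were called over distal hours, in Per2, Nr1d2, Clock and Tef, where 17.4% of every named probe set were called.

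Nfil3 had its lowest distal mean at 8 h and its highest at 28 h. It was at 7.70 at 1 h, 7.53 at 3 h, 6.77 at 8 h and 7.07 at 12 h in set A, then at 7.93, 8.08, 8.40 and 8.58 at 16, 18, 24 and 28 h (F = 18.7, adjusted p = 4.4e-10, limma, over 29 arrays; F = 29.7, adjusted p = 1.58e-08, on set A alone). Its 8 h arrays lay between 6.42 and 7.18, and those of 24 and 28 h between 8.14 and 8.73. Over the hour means of all 29 distal arrays its correlation was 0.18 with Dbp, 0.35 with Nr1d1 and 0.41 with Bmal1. A cosine of 24 h fitted to the hour means held 53.1% of their variance for Nfil3. It held 80.4% for Nr1d1, 85.6% for Nr1d2, 70.3% for Dbp, 66.7% for Tef and 70.6% for Bmal1, but 51.8% for Per1, 47.8% for Hlf, 19.7% for Per2 and 9.23% for Clock, so this share does not set Nfil3 apart. With 8 hours over little more than 1 day, the cosine is a description and no test of a rhythm.

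**Figure D4:**
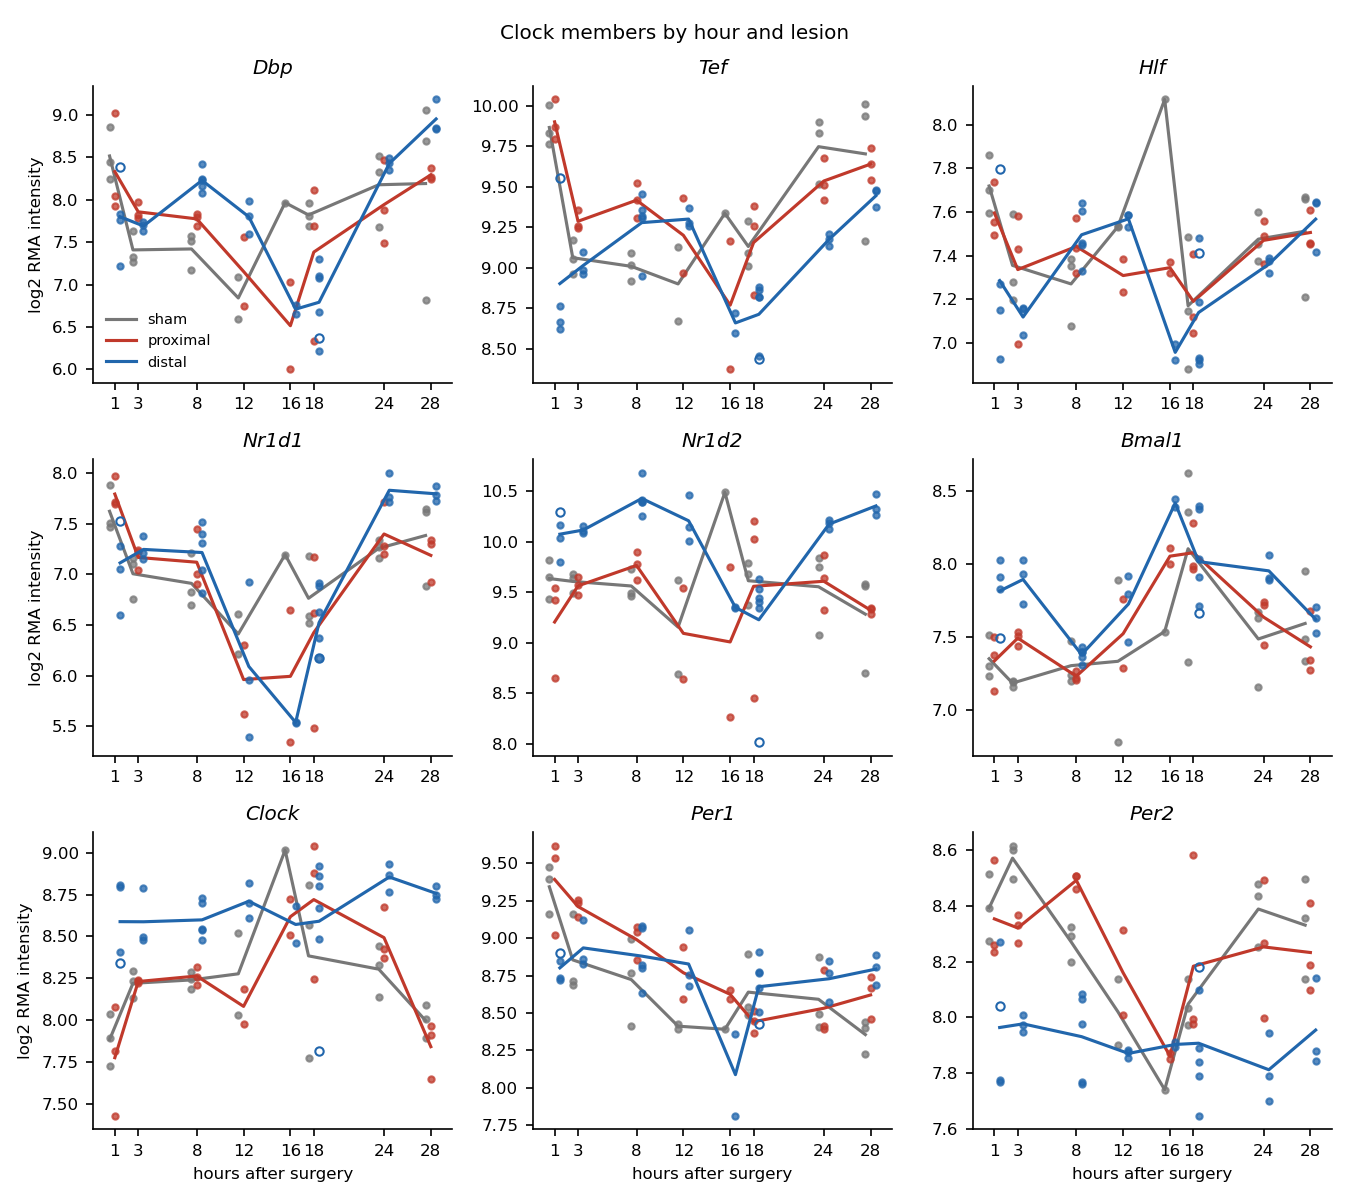
The 9 members other than Nfil3 on each array (points, log2 RMA intensity) against hours after surgery, with lines through the group means of sham (grey), proximal (red) and distal (blue). Open blue circles are the 2 distal arrays outside set A. The proximal and distal lines of Dbp are lowest at 16 h, and those of Nr1d1 are low at 12 and 16 h. The proximal and distal lines of Bmal1 are high at 16 and 18 h. The single sham array at 16 h stands high for Hlf, Nr1d2 and Clock.

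After proximal crush Nr1d1 and Bmal1 ran much as after distal crush, apart from 1 h, where proximal Nr1d1 was highest. Dbp was lowest at 16 h after both crushes but differed before that. Distal Dbp in set A rose from 7.60 at 1 h to 8.23 at 8 h, while proximal Dbp fell from 1 h to 16 h. Proximal Dbp was at 8.33 at 1 h, 7.86 at 3 h, 7.77 at 8 h, 7.16 at 12 h, 6.52 at 16 h, 7.38 at 18 h, 7.94 at 24 h and 8.29 at 28 h (F = 4.84, adjusted p = 0.00138, limma). Nr1d1 was lowest at 12 h (5.62 and 6.30) and 16 h (5.34 and 6.65) and highest at 1 h (7.69 to 7.97), with F = 8.41 (adjusted p = 1.1e-05, limma). Bmal1 was lowest at 8 h (7.20 to 7.27) and highest at 16 h (8.00 and 8.11) and 18 h (7.97 to 8.28), with F = 3.93 (adjusted p = 0.00542, limma). Across the 8 hour means the correlation between proximal and distal was 0.91 for Nfil3, 0.85 for Nr1d1, 0.85 for Bmal1 and 0.75 for Dbp. It was below 0.5 for the other 6: 0.48 for Tef, 0.43 for Per1, 0.38 for Hlf, 0.31 for Per2, 0.28 for Nr1d2 and -0.12 for Clock. Between sham and proximal the correlation was 0.12 for Nfil3, 0.71 for Nr1d1, 0.72 for Bmal1 and 0.43 for Dbp. The arrays of different groups share no library, and the correlations are given as a description.

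Per1 had F = 9.09 (adjusted p = 4.97e-06, limma) over proximal hours. Its arrays ran from 9.02 to 9.62 at 1 h, 9.14 to 9.26 at 3 h and 8.86 to 9.08 at 8 h, and from 8.37 to 8.79 at 18, 24 and 28 h, so that no late array reached the early ones. Tef over proximal hours (F = 5.92, adjusted p = 0.000294, limma) was at 9.80 to 10.04 at 1 h, at 8.37 and 9.16 at 16 h and at 9.54 to 9.74 at 28 h. Clock (F = 5.84, adjusted p = 0.000327, limma) was at 7.43 to 8.08 at 1 h, 8.24 to 9.04 at 18 h, 8.37 to 8.68 at 24 h and 7.65 to 7.96 at 28 h. The 24 h arrays of Clock thus lay above those of 1 and 28 h, all in set D. Per2 had F = 2.70 (adjusted p = 0.0378, limma), with its highest mean at 8 h (8.46 to 8.51) and its lowest at 16 h (7.85 and 7.87). Hlf (adjusted p = 0.361, limma) and Nr1d2 (adjusted p = 0.355, limma) were not called over proximal hours. With the technical set as a random block, Bmal1 (adjusted p = 0.0556, limma) and Per2 (adjusted p = 0.109, limma) were no longer called and Nr1d2 was (adjusted p = 5.36e-05, limma). On the proximal arrays of set D alone, at 1, 24 and 28 h, Nfil3 (adjusted p = 0.00145, limma), Per1 (adjusted p = 0.00206, limma) and Clock (adjusted p = 0.00458, limma) were called, and Tef was not (adjusted p = 0.244, limma). These 3 of the 10 members stand beside 25.3% of all genes called in that fit.

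In sham the test over hours was passed by Tef (F = 7.95, adjusted p = 1.83e-05, limma), Per1 (F = 7.48, adjusted p = 3.34e-05, limma), Per2, Dbp, Hlf, Bmal1, Clock and Nr1d1, and not by Nfil3 (adjusted p = 0.406, limma) or Nr1d2. Sham Nfil3 stayed between 6.62 and 7.94 on all 21 arrays. Sham Tef was at 9.77 to 10.01 at 1 h, 8.92 to 9.17 at 3 and 8 h, 9.51 to 9.90 at 24 h and 9.16 to 10.01 at 28 h, so its highest hourly means were at the hours of set D, though the lowest array at 28 h lay among those of 3 h. Sham Per1 was at 9.16 to 9.48 at 1 h and at 8.23 to 8.44 at 28 h, without overlap. Sham Per2 was highest at 3 h (8.50 to 8.62) and lowest in the single array at 16 h (7.74). With the technical set as a random block 16.4% of all genes were called, and 4 members: Clock, Hlf, Per1 and Nr1d2. Dbp was then at an adjusted p = 0.267 (limma), Bmal1 at 0.0674, Nr1d1 at 0.29, Per2 at 0.141 and Tef at 0.329. Fewer members and fewer genes were called without sham 12 h b and the sham array of 16 h, and also without the 4 sham arrays highest in Atf3. These fits left 1 sham array at 12 h.

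The hours within a technical set gave a closer comparison. In set D, Per1 was at 9.02 to 9.62 at 1 h (3 sham and 3 proximal arrays) and at 8.23 to 8.88 at 24 and 28 h (12 arrays), a mean difference of -0.84 with no overlap. Fitted on set D alone, Per1 was called in sham (adjusted p = 0.0113, limma) and in proximal (adjusted p = 0.00206, limma). Nfil3 (adjusted p = 0.00145, limma) and Clock (adjusted p = 0.00458, limma) were called in proximal too. On set D alone 1.74% of all genes were called over sham hours and 25.3% over proximal hours. In set C, the 12 arrays of 3 and 8 h had Dbp at 7.17 to 7.97 and Nr1d1 at 6.69 to 7.45. The later arrays of this set, 3 proximal, 2 sham and 1 distal array of 12 to 18 h, mix the lesions otherwise than the early ones (6 sham and 6 proximal). The 3 proximal arrays had Dbp at 6.0 to 6.75 and Nr1d1 at 5.34 to 5.62, below the 6 early proximal arrays by mean differences of -1.45 and -1.66, with no overlap. The 2 sham arrays had Dbp at 6.59 (12 h) and 7.96 (18 h), below and above all early sham arrays (7.17 to 7.63). Their Nr1d1 was at 6.60 and 7.19, against 6.69 to 7.21 in early sham. The mean differences from early sham were -0.14 and -0.06. For Dbp this mean hides 2 arrays that moved in opposite directions. Over proximal hours on set C alone, with 1 array at each of 12, 16 and 18 h, 7 members were called beside 9.24% of all genes: Dbp (adjusted p = 2.21e-06, limma), Nr1d2 (2.47e-06), Nr1d1 (8.32e-06), Bmal1 (0.000433), Tef (0.000707), Nfil3 (0.0252) and Per2 (0.0333). On set D alone Dbp (adjusted p = 0.722, limma), Bmal1 (0.405) and Nr1d2 (0.437) were not called.

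Arrays of 1 hour that fell in different sets could differ as much as the hours did. At 18 h the proximal arrays a and b, in set B, had Nr1d2 at 10.03 and 10.20 and Dbp at 7.70 and 8.12, and c, in set C, had 8.45 and 6.33. Sham 18 h a and b, in set B, had Bmal1 at 8.36 and 8.63, and c, in set C, 7.33. At 16 h the proximal arrays, in sets C and B, had Dbp at 6.0 and 7.03, against 7.97 in the single sham array. The differences at 16 h were -1.45 for Dbp, -1.48 for Nr1d2, -1.20 for Nr1d1, -0.77 for Hlf and -0.57 for Tef. None was called (adjusted p from 0.273 to 0.45, limma). Without proximal 16 h b the comparison is 1 proximal array, in set C, against 1 sham array, in set B, so no calls are read from it.

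Of 20 other clock genes, a list chosen with earlier results of these data known, 13 were tested. In late proximal minus sham 1 was called, Nampt, a NAD synthesis enzyme under clock control, at 0.74 (SE 0.16, adjusted p = 0.000669, limma), and the list's median was -0.0026 against -0.02 over all genes. Within sham 10 of the 13 were called over hours, where 53.6% of all genes were, with the smallest adjusted p for the kinases Csnk1d (1.44e-06, limma) and Csnk1e (3.28e-06, limma), Per3 (1.75e-06, limma) and Cry2 (0.000145, limma). Over distal hours 4 of the 13 were called, against 16.7% of all genes, named here after their values were seen: Per3, Wee1, Npas2 and Cry1. Per3, a period gene, was at 7.18 at 8 h, 5.93 at 16 h and 7.72 at 28 h (F = 13.1, adjusted p = 9.25e-08, limma), the order of Dbp. Npas2, a partner of BMAL1 in place of CLOCK, was highest at 16 h (6.29) and lowest at 12 h (5.11), with F = 9.90 (adjusted p = 3.75e-06, limma).

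Stress hormones and neuronal activity are known to reset clock genes, and a list was kept for each. Of 10 glucocorticoid-responsive genes 9 were tested. In late proximal minus sham, where 9.71% of all genes were called, 3 of these were higher: Cdkn1a (0.89), Dusp1 (0.63) and Mt2A (0.90). Of 7 immediate-early genes 6 were tested, and 5 were higher: Atf3 (3.62), Fos (1.95), Egr1 (0.73), Junb (0.68) and Ier2 (0.65). The medians of these lists were 0.27 and 0.70. Over sham hours 6 of the 9 glucocorticoid-responsive genes were called, with the smallest adjusted p for Nfkbia (2.87e-11, limma), Klf9 (4.33e-11, limma), Sgk1 (2.25e-08, limma) and Dusp1 (0.00584, limma), and 3 of the 6 immediate-early genes, Atf3, Junb and Nr4a1. Both counts are near the 53.6% of all genes called over sham hours.

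The genes whose hour means were most like those of Nfil3 over the 16 sham and proximal means were Cebpd (r = 0.96), Maff (0.96), Gch1 (0.96), Timp1 (0.95) and Plin2 (0.94). Late proximal minus sham was 0.73 (Plin2) to 1.33 (Gch1 and Timp1) in these 5, values that entered the ranking and are no separate result. Dbp was most like Tm7sf3 (0.90), Dohh (0.90), Mpdu1 (0.89), Slc19a1 (0.88) and P4ha2 (0.88), and least like Hook3 (-0.86), Cpsf7, Iqgap2, Ints6 and Akap11. Bmal1 was most like Plat (0.83), Lrch3, B4galt6, Plce1 and Sik2. These correlations rank genes across means that also carry the technical sets, and the genes named for Dbp or Bmal1 were not called in late proximal minus sham.

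Some markers of cell types also differed between late proximal crush and sham, where 9.71% of all genes were called. Of 12 macrophage markers 7 were higher in late proximal crush than in sham (Aif1, C1qa, C1qb, C1qc, Cd14, Fcer1g and Tyrobp), with a list median of 0.56 and a mean level of 7.58 to 8.56 after proximal crush against 7.07 to 7.94 in sham. At 24 h none of the 12 was called by limma (1.21% of all genes), while Nfil3 was, and at 28 h 8 were (4.47%). S100a9, of 2 tested neutrophil markers, was higher by 0.97, and Gfap, of 7 tested satellite glia markers, by 2.14. Of 14 sensory neuron markers 2, Rbfox3 and Scn10a, were lower, and 0 of the tested Schwann cell, lymphocyte, muscle and erythrocyte markers were called. The neuron markers were bright in all groups, with array means from 12.21 to 12.68. The part of these cells in the Nfil3 values was not tested. In whole ganglia, a change in RNA per cell and a change in the number of cells cannot be told apart.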

How the data were processed

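Affymetrix arrays measured RNA of L4 and L5 ganglia, with lesion, hour and letter taken from the labels. The authors summarised each probe set with RMA into the deposited log2 intensity, per the submitters' processing notes, with the version and whether all arrays were normalized together not given in the sources used here. The number of arrays per group limits the precision.

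Of 31099 probe sets 57 controls were left out. Of the rest, the platform's annotation gave 1 symbol to 20826, several to 436 and none to 9780, and 20758 matched RefSeq by Entrez identifier with 0 symbols changed. Each gene kept its brightest probe set, and genes under 5.46 log2 on average (the 25th percentile) were not tested.

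A model of 24 group means was fitted to all 72 arrays with limma 3.58.1 in R 4.3.3 (48 residual degrees of freedom, empirical Bayes moderation with a trend). Files were read with the R package data.table (version 1.17.8), and figures drawn with matplotlib 3.10.9 in Python 3.11.15. Tests were two-sided, with Benjamini-Hochberg adjustment over 12276 genes within a comparison. Hours within a lesion were tested with a moderated F over 8 hours. The single sham array at 16 h was assumed to vary like the other groups. Technical sets came from Ward clustering on probe sets below the filter, cut at a chosen number of 4. They were fitted as a fixed or a random block (duplicateCorrelation). On simulated data the fit recovered a share of 0.98 of late proximal differences of size 1 and 0.8 of size 0.5. The simulated noise was independent between arrays, without technical sets. In the data the consensus correlation within technical sets was 0.72, so these shares hold for the simulated setting only.

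The members, the lists and the windows were chosen with earlier results of these data known. The rule for named genes took all members, list genes called in late proximal minus sham or among the 4 of a list with the smallest adjusted p over sham hours, and the 5 genes most like Nfil3, Dbp and Bmal1 (and least like Dbp). Letters were checked as pairs by the correlation of deviations from group means. It was over 0.1 for every pair at 1, 12 and 18 h, but not at 3, 8, 24 or 28 h, so letters were not taken to pair arrays.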

Additional observations from a re-analysis of the deposited data

Results flagged for a closer look

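Tef in distal 1 h do was at 9.56, above the nearest of the other 3 distal arrays at 1 h (8.76), a gap large for a group of 4. Nr1d2 in distal 18 h do was at 8.01, below the nearest of the other 5 distal arrays at 18 h (9.34). Both arrays lie outside technical set A, which holds all other distal arrays. Of 30 tests of a member in a group of 4 to 6 arrays, 2 were this far apart, and chance gives about 1 in 20.

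The difference of Nfil3 between proximal crush and sham was larger late than early by 1.32 (adjusted p = 6.53e-07, limma). The step of Per1 from early to late differed between distal and proximal crush by 0.53 (adjusted p = 0.00191, limma). With the technical set as a random block its adjusted p was 0.0636 (limma). Lesion site and technical set cannot be told apart in this comparison.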

How the results depend on the processing

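The difference of Nfil3 between late proximal crush and sham was called under every alternative run for it, between 1.36 and 1.54. Of 1336 recomputed values of single members and of all-gene counts at single hours, 1189 kept their direction and side of the threshold (or stayed within 1.5 times the count), 81 lost a call or fell below that range, 58 gained a call or rose above it and 8 reversed. The reversals were all dimmer probe sets: late distal minus sham had -0.28 and -0.65 for Clock, 0.64 for Hlf, -0.045 and -0.35 for Nr1d2 and 0.30 for Per2, and distal late minus early had -0.39 for Clock and -0.57 for Tef. The cause of these and the following changes was not tested unless stated.

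Members called: with the set as a random block, 4 in sham hours (16.4% of all genes), 0 in distal rise minus proximal rise (2.89%) and 0 in late distal minus sham (0.717%). Set A alone gave 3 in distal late minus early (44% of all genes). Set D alone gave 1 in sham hours (1.74% of all genes) and 3 in proximal hours (25.3%), with fewer arrays. Set C alone gave fewer in sham hours than the main fit, with 1 sham array left at 12 h and 1 at 18 h. Sham hours gave 5 without sham 12 h b and 16 h a. Distal rise minus proximal rise gave 2 after another quantile normalization and 2 with only the arrays compared, which gave 0 at 18 h for proximal minus sham. Leaving out 1 array at a time gave 1 to 2 for distal rise minus proximal rise. For proximal minus sham at 16 h, leaving out a proximal array left 1 array against 1, so no count is given.

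All genes called: every named probe set, a larger number tested, gave 5257 for distal late minus early, 4671 for distal rise minus proximal rise, 1 for early proximal minus sham, 3631 for distal hours, 9969 for sham hours and 12715 for late distal minus sham. The set as a fixed block gave 588 for early and 2336 for late proximal minus sham, 2544 for late against early and 3697 for distal hours. As a random block it gave 549, 2277, 2459 and 3682, and 355 for distal rise minus proximal rise, 2017 for sham hours and 88 for late distal minus sham. Set A alone gave 5399 for distal late minus early and 4679 for distal hours, set C alone 1134 for proximal and 2628 for sham hours, and set D alone 3109 and 214. Another quantile normalization gave 165 for early, 1809 for late and 1819 for late against early. Early proximal minus sham, 16 genes in the model of the report, had 44 with the filter at the 50th percentile, 157 without arrays whose letter is followed by o, 62 with only the arrays compared and 1 to 187 with 1 array left out. Proximal hours had 3596 with only the arrays compared. The main counts are 3103 (distal late minus early), 2637 (distal rise minus proximal rise), 2044, 6144 and 6577 (distal, proximal and sham hours), 7590 (late distal minus sham), 1192 (late proximal minus sham) and 1064 (late against early).

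With the letter as a replicate block, early proximal minus sham had 107 genes called and Nfil3 in late proximal minus sham again 1.40. At single hours the all-gene counts ranged over 0 to 1 at 1 h, 0 to 67 at 3 h, 4 to 942 at 8 h, 0 to 523 at 12 h, 0 to 736 at 16 h, 3 to 894 at 18 h, 83 to 410 at 24 h and 270 to 1605 at 28 h. Single arrays decided some calls: Per2 over proximal hours was lost without any of proximal 1 h a, 8 h a, b or c, or 16 h a or b, Bmal1 over sham hours without sham 18 h a or b, Nr1d1 over sham hours without sham 1 h a, 12 h b, 18 h a or b, or 28 h b, and Clock over sham hours without sham 1 h c. Late distal minus sham lost Nr1d2 without sham 18 h c, 24 h c or 28 h a, and Per1 without any of 12 arrays. Alternatives with arrays left out for their Atf3, with 1 technical set alone or with 24 and 28 h alone were chosen after seeing the data. The set as a fixed block could not be fitted for sham hours, proximal hours, distal rise minus proximal rise or late distal minus sham.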
